A study of Mus musculus with 3 samples.

Results

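The genes described here are 34 named lysosomal genes of the mouse, given as a list of symbols with no threshold on measured values: 10 cathepsins, 9 glycosidases, 5 sulfatases, 5 other proteins of the lysosomal lumen and 5 proteins of the lysosomal membrane. The list was chosen with earlier results of these data known. All 34 were found among the 22706 genes of the files, and 31 were among the 11462 genes that reached 1 FPKM in at least 1 library and were compared. FPKM is the number of fragments scaled to transcript length and to the mapped fragments of the library, so levels can be set beside each other between genes. The study measured polyadenylated RNA by RNA-seq in 3 libraries of C2C12 cells, a mouse line of myoblasts, with 1 library in each group. The library labelled shKSRP came from cells in growth medium with 20% serum that were transfected with a short hairpin RNA against KSRP, an RNA-binding protein encoded by Khsrp. The BMP2 library came from mock-transfected cells labelled with the differentiation medium, which holds 2% horse serum, and with BMP2, a bone morphogenetic protein given at 100 to 300 ng/ml. Both were set against the mock library, from mock-transfected cells kept in the growth medium. All cells went through transfection, medium and BMP2 differ together between the BMP2 and mock libraries, and the length of the treatment is not spelled out. With 1 library per group there was no replicate spread, no test and no p-value.

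Lysosomes are acidic organelles in which hydrolases take apart proteins, glycans and lipids delivered by endocytosis and autophagy. Most soluble hydrolases are tagged with mannose 6-phosphate in the Golgi and carried to the lysosome by receptors, and the organelle's membrane is lined with heavily glycosylated proteins that withstand the enzymes. Many lysosomal genes carry the CLEAR element in their promoters, a sequence built on an E-box that is bound by the MiT/TFE transcription factors, among them Tfeb, Tfe3 and Mitf. In muscle, lysosomes clear glycogen and worn organelles, and loss of the glycosidase Gaa or of the membrane protein Lamp2 causes disease of heart and skeletal muscle in humans.

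The widths of the deposited intervals corresponded to about 68.5 M (mega) fragments in the library labelled shKSRP, 60.4 M in the BMP2 library and 62.1 M in mock. Khsrp, the target of the hairpin, stood at 28.4 ± 0.64 FPKM in the library labelled shKSRP, 27.1 ± 0.67 in the BMP2 library and 31.4 ± 0.85 in mock (here and below ± is the half-width of the deposited 95% interval, which covers counting and assignment error only). The log2 ratio to mock was -0.14, so the transcript was close to its mock level in the library labelled as its knockdown. The myoblast genes Myod1 and Des were present in all 3 libraries, with at least 17.3 and 185 FPKM. Myf5, another myoblast gene, stood at 48.4 ± 1.2 FPKM in the library labelled shKSRP, 9.09 ± 0.54 in the BMP2 library and 7.75 ± 0.50 in mock, and its part in the lysosomal results was not tested. Id1, a classical target of BMP signalling, stood at 212 ± 4.2 FPKM in the BMP2 library and 289 ± 4.9 in mock, and Id3, another such target, at 732 ± 7.6 and 489 ± 6.2, so they differed in direction. Of 22 macrophage and osteoclast markers, cells rich in lysosomes, 8 were listed at 0 in all libraries, among them Adgre1, Itgam and Tyrobp, and 4 reached 1 FPKM anywhere. Lyz2 was at 3.98 FPKM in the library labelled shKSRP, 1.83 in the BMP2 library and 0.599 in mock. Nfatc1, at 8.13, 10.2 and 2.76 FPKM in the same order, was also lowest in mock. Cd14, at 4.61, 10.5 and 11.9, was highest in mock, and Csf1r, at 0.209, 2.13 and 0.552, in the BMP2 library. The part of these 4 in the lysosomal results was not tested. The summed level of all 22 was 17.7 FPKM in the library labelled shKSRP, 25.2 in the BMP2 library and 16.9 in mock. Of the epithelial and endothelial markers, only Krt14 reached 1 FPKM, with 18.4 ± 1.0 in the library labelled shKSRP, 264 ± 3.3 in the BMP2 library and 114 ± 2.7 in mock. Its part in the lysosomal results was not tested.

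The E-box core of the CLEAR element was searched in RefSeq promoters of build GRCm38.p6, which run from 250 bases before to 50 bases after the transcript start and were at hand for 30 of the 34 genes. The letters TCACGTG, on either strand, were in the promoters of 10 of these genes and in 3.77% of all 32851 promoters. A longer form of the element that contains TCACGTG was also searched. It was in the promoters of 0 of the 30 genes and in 0.326% of all promoters. The shorter CACGTG, which is part of TCACGTG, was in 12 of the 30, the additional ones being Ctsf and Ctsl, and in 7.15% of all. The windows around the match nearest the start are printed below for the 10 genes, so that the shared letters can be seen in place. They are 5′ to 3′ on the gene's strand, end at or before the transcript start, and the capitals mark TCACGTG or its reverse complement CACGTGA, which overlap as TCACGTGA where both strands match.
Gaa, chr11:119267802-119267848, plus strand: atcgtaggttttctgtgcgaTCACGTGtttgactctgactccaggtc
Gla, chrX:134601173-134601220, minus strand: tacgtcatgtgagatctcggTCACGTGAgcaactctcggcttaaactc
Glb1, chr9:114401009-114401055, plus strand: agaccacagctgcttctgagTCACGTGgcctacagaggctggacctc
Naglu, chr11:101070000-101070046, plus strand: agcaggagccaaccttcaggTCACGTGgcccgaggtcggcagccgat
Sgsh, chr11:119355513-119355559, minus strand: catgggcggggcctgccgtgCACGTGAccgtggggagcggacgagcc
Arsa, chr15:89477425-89477461, minus strand: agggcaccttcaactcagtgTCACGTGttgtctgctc
Mcoln1, chr8:3500453-3500500, plus strand: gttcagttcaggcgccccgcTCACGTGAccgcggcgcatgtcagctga
Lamp1, chr8:13159125-13159160, plus strand: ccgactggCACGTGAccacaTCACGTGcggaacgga
Ctsa, chr2:164833740-164833772, plus strand: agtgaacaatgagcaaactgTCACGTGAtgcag
Ctsd, chr7:142387899-142387946, minus strand: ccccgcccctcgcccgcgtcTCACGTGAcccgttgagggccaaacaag
A match says only that these letters are present and is no measurement of binding. Lamp1 held the letters at 2 places in its window. By the rule given next, TCACGTG was in the promoters of 5 of the 9 genes higher in the library labelled shKSRP than in mock (Gaa, Gla, Naglu, Sgsh and Mcoln1), and of 5 of the 18 genes with a promoter at hand that were neither higher nor lower. Gla was listed at 0 in mock and compared only through the library labelled shKSRP. For the BMP2 library against mock, TCACGTG was in 1 of the 5 higher genes and in 9 of the 22 others with a promoter at hand.

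Compared with mock, the lysosomal genes were more often higher than lower in both other libraries. In the library labelled shKSRP the higher genes were 5 glycosidases, 2 sulfatases and the membrane proteins Lamp2 and Mcoln1, and in the BMP2 library they were 2 sulfatases, 1 cathepsin, 1 glycosidase and Lamp2. The rule for higher and lower was a log2 ratio of FPKM + 1 that is at least 1 in size, which is 2-fold at high levels and understates the change of low genes. Set against mock, the library labelled shKSRP had higher levels of 9 of the 31 compared genes, a lower level of 1 and neither for 21, where 11.0% of all compared genes were higher and 12.9% lower. In the BMP2 library against mock, 5 were higher, 0 lower and 26 neither, where 9.21% of all compared genes were higher and 8.95% lower. With each library scaled to the same total of FPKM, 14 and 12 lysosomal genes were higher than mock, where 19.1% and 14.8% of all compared genes were. With assembled transcripts that overlap a gene on any strand counted in it, 6 and 1 were higher, where 9.63% and 8.4% of all compared genes were. With these set to 1 gene length, 8 and 2 were higher, where 9.73% and 7.62% were. For the BMP2 library neither of these counts exceeded the share of all compared genes. Both comparisons share the mock library, so a low value there moves both. Without Gla, 8 were higher in the library labelled shKSRP by the main count. The median log2 ratio was 0.46 and 0.30 for the lysosomal genes, against -0.02 and 0.03 for all compared genes. Idua, Ids and Lamp2 were higher than mock in both libraries. Gaa, Gla, Naglu, Neu1, Sgsh and Mcoln1 were past 2-fold in the library labelled shKSRP alone, and Ctsf and Arsa in the BMP2 library alone. In RNA from bulk cells, a change in the cells present and a change in RNA per cell cannot be told apart.

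**Figure D1:**
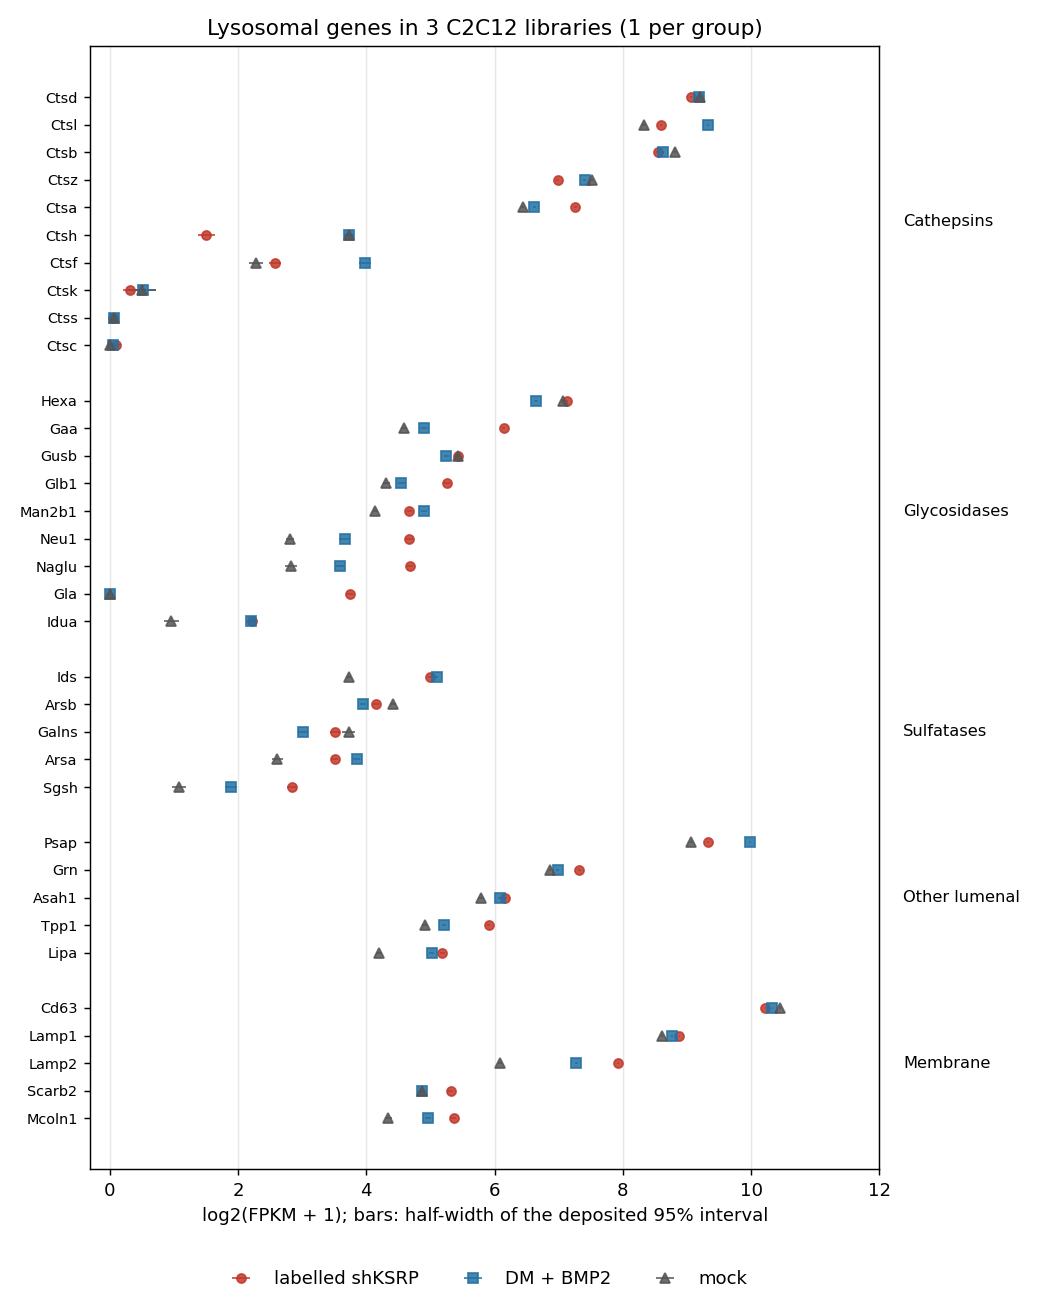
Level of each of the 34 lysosomal genes, as log2(FPKM + 1), in the library labelled shKSRP (red circles), the BMP2 library (blue squares) and mock (grey triangles), with bars for the half-width of the deposited 95% interval. Genes run from Cd63 at over 1000 FPKM to Ctsc, Ctsk and Ctss, which stayed under 1 FPKM in all 3 libraries, and Gla sits at 0 in 2 of them.

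The library labelled shKSRP was also compared directly with the BMP2 library. Here 4 of 31 genes were higher (Gaa, Gla, Naglu and Neu1) and 2 were lower (Ctsf and Ctsh), where 6.06% of all compared genes were higher and 8.65% lower. Without Gla, which is listed at 0 in the BMP2 library and was compared only through the library labelled shKSRP, 3 were higher. Gaa and Ctsh stayed past 2-fold under all 16 other ways of processing. Naglu did so in 15, Ctsf in 13 and Neu1 in 10 of them.

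The size of the ratios went with the level of the genes. Of the 11 lysosomal genes with a mean of 100 FPKM or more, 1 was higher in the library labelled shKSRP than in mock, with a median log2 ratio of 0.26. Of the 20 below that mean, 8 were higher and 1 lower, with a median of 0.97. Gla is among these 20 and these 8, though it was listed at 0 in mock and compared only through the library labelled shKSRP. All compared genes under a mean of 100 FPKM were higher in 11.6% and lower in 12.4%, and those at 100 or more were higher in 4.6% and lower in 18.5%. For the BMP2 library against mock, the lysosomal genes had 1 higher of 11 and 4 higher of 20, with medians of 0.12 and 0.47. All compared genes at those levels were higher in 5.64% and 9.54%. The summed level of all 34 was 4978 ± 15 FPKM in the library labelled shKSRP, 5427 ± 19 in the BMP2 library and 4592 ± 16 in mock. That was 0.934%, 0.961% and 0.677% of the FPKM of all genes, whose total was 533262, 564500 and 677872 in the same order.

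**Figure D2:**
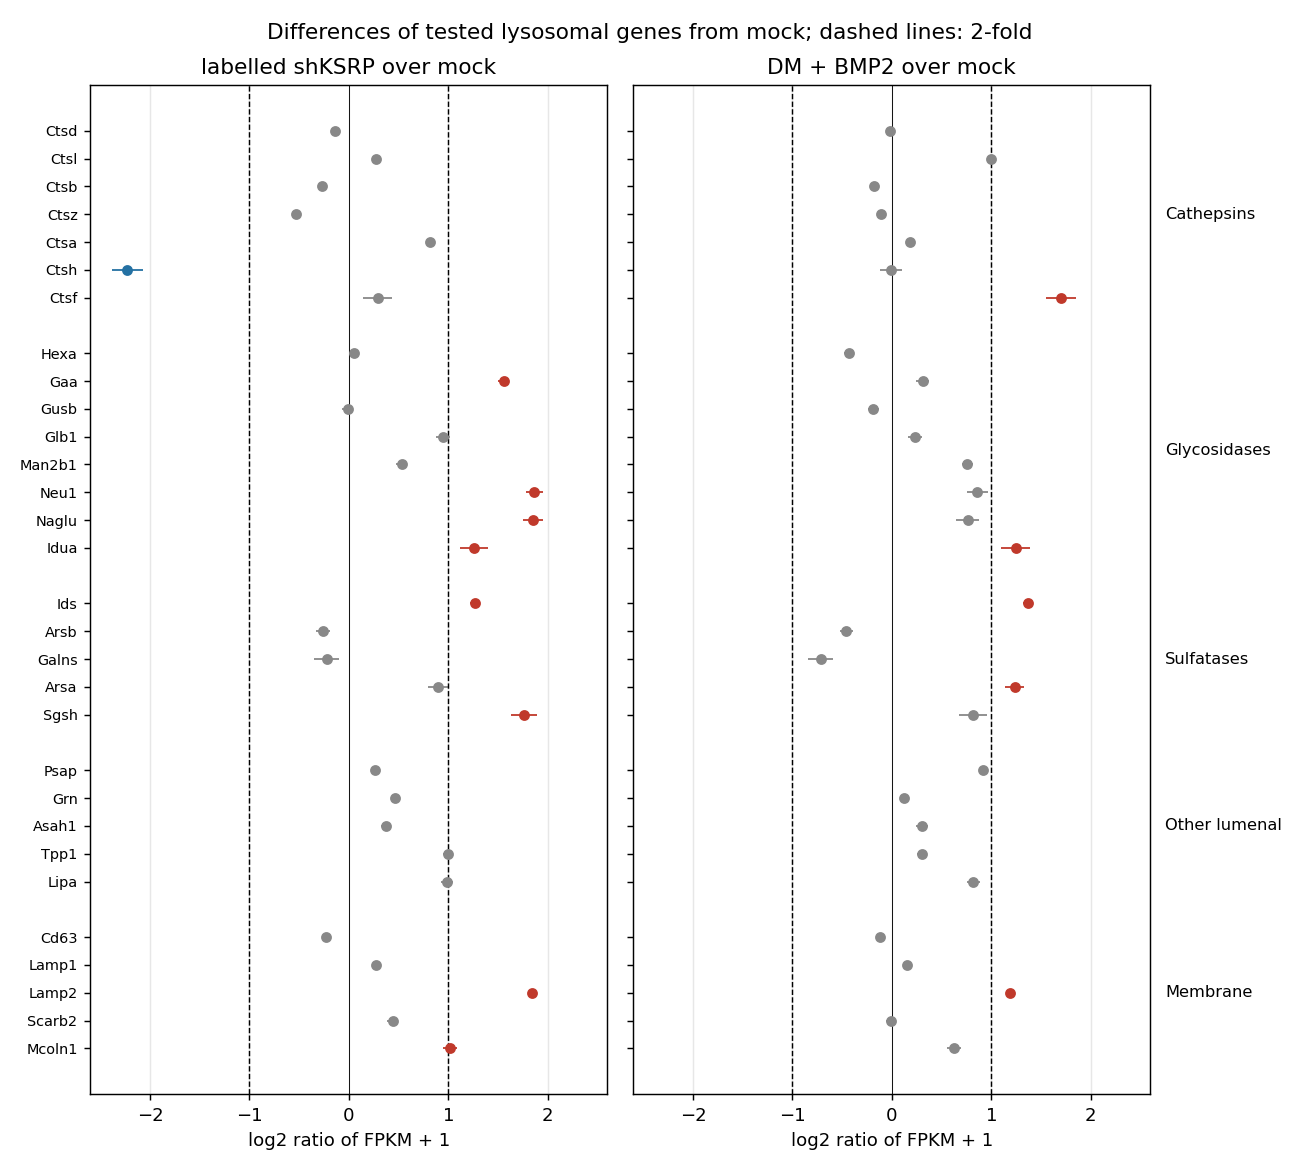
Log2 ratio of FPKM + 1 to mock for the compared lysosomal genes in the library labelled shKSRP (left) and the BMP2 library (right), with bars for the interval error of both libraries together and dashed lines at 2-fold. Red points are higher and the blue point, Ctsh, is lower; Gla, listed at 0 in mock, has no ratio and is not drawn.

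The cathepsins are the proteases of the lysosome, and as a class they were not higher in the library labelled shKSRP. Ctsc, Ctsk and Ctss, cysteine proteases known from immune cells and, for Ctsk, from osteoclasts, stayed at or below 0.072, 0.443 and 0.0527 FPKM in every library and were not compared. Of the other 7, 0 were higher and 1 was lower in the library labelled shKSRP than in mock. In the BMP2 library 1 was higher. Of all compared genes, 11.0% were higher and 12.9% lower in the library labelled shKSRP, and 9.21% were higher in the BMP2 library. Among 7 genes, counts of 0 and 1 are close to these shares. The median log2 ratio of the 7 to mock was -0.14 and -0.01. The sign of neither median is firm, since scaling each library to the same total moved them to 0.21 and 0.25. The summed cathepsin level was 1576 ± 8.3 FPKM in the library labelled shKSRP, 1912 ± 10 in the BMP2 library and 1642 ± 9.1 in mock.

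Ctsh, a cysteine protease that acts as an aminopeptidase (chr9:89949105-89970933 in mm9, plus strand), was the only lysosomal gene lower in the library labelled shKSRP. It stood at 1.85 ± 0.27 FPKM in the library labelled shKSRP, 12.3 ± 0.73 in the BMP2 library and 12.3 ± 0.72 in mock. The log2 ratios of the library labelled shKSRP were -2.23 to mock and -2.22 to the BMP2 library, and both were past 2-fold under all 16 other ways of processing. The other 2 libraries had the same level within their intervals. Ctsf, another cysteine protease (chr19:4855129-4860912, plus strand), was highest in the BMP2 library. It stood at 4.96 ± 0.39 FPKM in the library labelled shKSRP, 14.8 ± 1.0 in the BMP2 library and 3.87 ± 0.38 in mock, so that the BMP2 library stood above the other 2. Its log2 ratio of the BMP2 library to mock was 1.70, of which 6.07 FPKM in the BMP2 library came from transcripts assembled from its own reads. In mock, 5.38 ± 1.2 FPKM sat on a short transcript of 508 nt on the opposite strand that overlaps Ctsf and is not counted in it. With such transcripts counted and set to 1 gene length, the ratio was 1.04.

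Ctsd, the aspartic protease of lysosomes, and Ctsl, a cysteine endopeptidase, had the highest mean levels of the class. Ctsd was at 535 ± 4.9 FPKM in the library labelled shKSRP, 584 ± 4.5 in the BMP2 library and 590 ± 5.9 in mock. Its locus is shared with Ifitm10. Ctsl was at 385 ± 3.4, 639 ± 7.1 and 320 ± 4.5 FPKM in the same libraries, and its log2 ratio of the BMP2 library to mock, 0.998, fell just short of the threshold. Ctsa, a serine carboxypeptidase that also protects the sialidase Neu1 and beta-galactosidase from breakdown, was highest in the library labelled shKSRP, with 152 ± 2.4 FPKM there, 97.5 ± 1.5 in the BMP2 library and 85.9 ± 1.5 in mock. With fragments counted over 1 gene length its log2 ratio to mock was 0.33 rather than 0.82, and with RefSeq transcripts alone it was -0.22. Ctsb and Ctsz, both cysteine proteases that trim proteins from their end, were lowest in the library labelled shKSRP. Ctsb was at 371 ± 4.6 FPKM in that library, 395 ± 5.1 in the BMP2 library and 449 ± 4.0 in mock, and Ctsz at 125 ± 2.4, 169 ± 2.9 and 182 ± 3.0. All Ctsb FPKM in mock came from assembled transcripts, and the sign of its small ratio depends on how they are counted.

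The glycosidases cleave sugars from glycogen, glycolipids and glycosaminoglycans, and they held most of the higher genes of the library labelled shKSRP. In it 5 of 9 were higher than in mock and 0 lower, where 11.0% of all compared genes were higher and 12.9% lower. The median log2 ratio of the 9 was 1.25. Without Gla, which was compared only through its level in the library labelled shKSRP, 4 were higher and the median was 1.10. The median kept its sign under all 16 other ways of processing, between 0.82 and 1.71. In the BMP2 library 1 of 9 was higher than in mock, close to the 9.21% of all compared genes, with a median of 0.31. With overlapping transcripts of any strand counted over 1 gene length, 4 of 9, including Gla, were higher in the library labelled shKSRP. In the BMP2 library 0 of 9 were then higher. By that count 9.73% and 7.62% of all compared genes were higher. The summed glycosidase level was 378 ± 3.3 FPKM in the library labelled shKSRP, 242 ± 3.0 in the BMP2 library and 248 ± 4.2 in mock.

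Gaa, the acid alpha-glucosidase that breaks down glycogen in lysosomes (chr11:119129281-119147012, plus strand), was the glycosidase with the firmest ratio. It stood at 69.8 ± 1.2 FPKM in the library labelled shKSRP, 28.8 ± 0.88 in the BMP2 library and 23.1 ± 0.77 in mock. The log2 ratio of the library labelled shKSRP was 1.56 to mock and 1.25 to the BMP2 library, and both were past 2-fold under all 16 other ways of processing. The RefSeq part of Gaa was given to the transcript of 3756 nt in both libraries other than mock, with 54.4 ± 0.99 FPKM in the one labelled shKSRP and 17.8 ± 0.64 in the BMP2 library, and to the transcript of 3666 nt in mock, with 12.7 ± 0.56 FPKM. In each library the other of these transcripts was listed at 0.

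Naglu, which removes N-acetylglucosamine from heparan sulfate (chr11:100931408-100938985, plus strand), was ordered with the library labelled shKSRP above the BMP2 library above mock. Its levels were 24.7 ± 0.77 FPKM in the library labelled shKSRP, 11.1 ± 0.55 in the BMP2 library and 6.13 ± 0.46 in mock, with a log2 ratio of 1.85 of the library labelled shKSRP to mock. Mock also held 7.47 ± 0.70 FPKM on an overlapping transcript without a strand that is not counted in Naglu. With it counted over 1 gene length, mock stood at 10.7 FPKM, close to the 11.1 of the BMP2 library, and the ratio of the library labelled shKSRP to mock was 1.13. Neu1, a sialidase (chr17:35068198-35074242, plus strand), was at 24.5 ± 0.97 FPKM in the library labelled shKSRP, 11.7 ± 0.73 in the BMP2 library and 6.01 ± 0.31 in mock. Its log2 ratios of the library labelled shKSRP were 1.86 to mock and 1.005 to the BMP2 library, the last just past the threshold. Assembled transcripts gave 18.0 FPKM in the library labelled shKSRP, 8.07 in the BMP2 library and 0 in mock. With fragments counted over 1 gene length the ratio to mock was 1.13, and with RefSeq transcripts alone Neu1 was not past 2-fold.

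Gla, the alpha-galactosidase of glycolipids (chrX:131122708-131135544, minus strand), was at 12.4 ± 0.49 FPKM in the library labelled shKSRP, and both the BMP2 library and mock listed it at 0. No fold is given against a listed 0, and the count of higher genes includes Gla only through the addition of 1 FPKM. Among all compared genes, 14 were listed at 0 in the BMP2 library and in mock with 10 FPKM or more in the library labelled shKSRP, so this pattern is not particular to Gla. Idua, the iduronidase of heparan and dermatan sulfate (chr5:109098125-109113577, plus strand), was low throughout, with 3.66 ± 0.26 FPKM in the library labelled shKSRP, 3.63 ± 0.29 in the BMP2 library and 0.951 ± 0.15 in mock. Both log2 ratios to mock were 1.25. Transcripts of the opposite strand or of no strand over Idua added up to 3.44 FPKM in the library labelled shKSRP, 2.47 in the BMP2 library and 3.46 in mock, and with them counted over 1 gene length the ratios were 0.68 and 0.81.

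Hexa, a subunit of beta-hexosaminidase, was the most abundant glycosidase, with 139 ± 2.1 FPKM in the library labelled shKSRP, 98.8 ± 2.3 in the BMP2 library and 134 ± 3.7 in mock. Assembled transcripts gave 0, 28.7 and 71.2 FPKM of these levels. The log2 ratio of the library labelled shKSRP to mock was 0.05. With fragments counted over 1 gene length it was 0.62, and with RefSeq transcripts alone 1.14. Glb1, the beta-galactosidase whose locus is shared with Tmppe, was at 37.4 ± 1.1, 22.4 ± 0.80 and 18.9 ± 0.73 FPKM in the same libraries, and its log2 ratio of the library labelled shKSRP to mock, 0.95, was just under the threshold. Gusb, a beta-glucuronidase, and Man2b1, an alpha-mannosidase, lay between 16.6 and 42.3 FPKM and were within 2-fold in all 3 comparisons.

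The sulfatases remove sulfate groups from glycosaminoglycans and sulfolipids and are expressed at lower levels than the other classes. Against mock, 2 of 5 were higher in the library labelled shKSRP and 2 of 5 in the BMP2 library, with median log2 ratios of 0.90 and 0.82. Of all compared genes, 11.0% and 9.21% were higher in these libraries. With overlapping transcripts of any strand counted over 1 gene length, 1 of 5 was higher in each, where 9.73% and 7.62% of all compared genes were. The sulfatase medians were then 0.50 and 0.36. Over all 16 other ways of processing these medians went down to 0.19 and 0.004. The summed level was 74.6 ± 1.2 FPKM in the library labelled shKSRP, 71.0 ± 1.1 in the BMP2 library and 51.1 ± 1.3 in mock.

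Ids, the iduronate sulfatase (chrX:67596245-67618260, minus strand), was high in both libraries against mock: 30.9 ± 0.60 FPKM in the library labelled shKSRP, 33.2 ± 0.66 in the BMP2 library and 12.2 ± 0.39 in mock. The log2 ratios to mock were 1.27 and 1.37, no assembled transcript was counted in any library, and the ratio of the BMP2 library was past 2-fold under all 16 other ways of processing. The ratio of the library labelled shKSRP was lost only where the trend with transcript length was taken out. Sgsh, the sulfamidase of heparan sulfate (chr11:119204803-119216824, minus strand), was at 6.16 ± 0.35 FPKM in the library labelled shKSRP, 2.72 ± 0.24 in the BMP2 library and 1.11 ± 0.16 in mock. Its log2 ratio of the library labelled shKSRP to mock was 1.76. A transcript of the opposite strand that covers Sgsh and was counted for its neighbour Card14 had 1.29 ± 0.20 FPKM in the library labelled shKSRP, 3.15 ± 0.29 in the BMP2 library and 3.77 ± 0.31 in mock, the reverse order. With it counted in Sgsh over 1 gene length, the log2 ratio was 0.73.

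Arsa, the sulfatase of sulfatide (chr15:89302907-89307855, minus strand), was at 10.4 ± 0.44 FPKM in the library labelled shKSRP, 13.4 ± 0.50 in the BMP2 library and 5.13 ± 0.34 in mock, with log2 ratios to mock of 0.90 and 1.24. An overlapping transcript not counted in Arsa stood at 4.99 ± 0.64 FPKM in the library labelled shKSRP and 8.26 ± 0.76 in mock, and with such transcripts counted over 1 gene length the ratios were 0.50 and 0.63. Arsb, which acts on dermatan sulfate, and Galns, which acts on keratan sulfate, went the other way. Arsb was at 16.8 ± 0.59 FPKM in the library labelled shKSRP, 14.5 ± 0.49 in the BMP2 library and 20.3 ± 0.75 in mock, and Galns at 10.4 ± 0.61, 7.09 ± 0.43 and 12.3 ± 0.92. Neither was past 2-fold, and the sign of their ratios depends on how assembled transcripts are counted.

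All 5 other lumenal proteins were above mock in both libraries, but 0 of 5 reached 2-fold, and Psap was below mock in the BMP2 library where only its most abundant RefSeq transcript was read. For the library labelled shKSRP the median log2 ratio to mock was 0.46, and for the BMP2 library it was 0.30. Of all compared genes, 11.0% and 9.21% were past 2-fold higher in these libraries. Psap, the precursor of the saposins that help glycosidases reach lipids (chr10:59740376-59765348, plus strand), was the most abundant, with 641 ± 4.6 FPKM in the library labelled shKSRP, 1007 ± 6.8 in the BMP2 library and 534 ± 4.3 in mock. Grn, the precursor of granulins, was at 159 ± 2.0 FPKM in the library labelled shKSRP, 126 ± 1.9 in the BMP2 library and 115 ± 1.8 in mock. Tpp1, a tripeptidyl peptidase, and Lipa, the acid lipase of cholesteryl esters, were just under the threshold in the library labelled shKSRP, with log2 ratios to mock of 0.996 and 0.987. Tpp1 was at 59.2 ± 0.99 FPKM in the library labelled shKSRP, 36.3 ± 0.83 in the BMP2 library and 29.2 ± 0.81 in mock, and Lipa at 35.5 ± 0.84, 31.5 ± 0.91 and 17.4 ± 0.61. Lipa thus stood above mock in both libraries and Tpp1 mostly in the library labelled shKSRP. Asah1, the acid ceramidase whose locus is shared with Frg1, was at 70.6 ± 1.4 FPKM in the library labelled shKSRP, 67.2 ± 1.7 in the BMP2 library and 54.2 ± 1.7 in mock.

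The share of the Psap transcripts also differed. Psap transcripts of RefSeq that start at the first exon of 155 nt (chr10:59740376-59740530) gave 403 ± 3.5 FPKM in the library labelled shKSRP, 318 ± 3.6 in the BMP2 library and 141 ± 2.4 in mock, all on 1 transcript of 2651 nt. The transcript of 2567 nt, whose first exon lies farther in (chr10:59747209-59747279, 71 nt), gave 238 ± 3.0 FPKM in the library labelled shKSRP, 287 ± 3.5 in the BMP2 library and 393 ± 3.5 in mock. The longer transcript thus made up 62.8% of the RefSeq FPKM of Psap in the library labelled shKSRP, 52.6% in the BMP2 library and 26.4% in mock. Both transcripts have 13 exons in common, and the BMP2 library holds a further 403 FPKM on assembled transcripts, so these shares rest on how Cufflinks divided the fragments.

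Of the membrane proteins, 2 of 5 were higher in the library labelled shKSRP than in mock and 1 of 5 in the BMP2 library. Of all compared genes, 11.0% and 9.21% were higher, and 1 of 5 cannot be told from such a share. The most abundant of the membrane proteins hardly moved. Cd63, a tetraspanin of late endosomes and lysosomes, was the most abundant gene of the list, with 1193 ± 9.5 FPKM in the library labelled shKSRP, 1288 ± 13 in the BMP2 library and 1396 ± 11 in mock. Lamp1, a main glycoprotein of the lysosomal membrane, was at 470 ± 3.5 FPKM in the library labelled shKSRP, 434 ± 3.6 in the BMP2 library and 390 ± 3.4 in mock. Scarb2, the receptor that carries glucocerebrosidase to lysosomes, was at 38.8 ± 1.0, 28.1 ± 0.62 and 28.3 ± 0.75 FPKM in the same libraries. Its RefSeq transcript had 13.9 FPKM in the library labelled shKSRP and was listed at 0 in the BMP2 library and in mock. The whole Scarb2 level of those libraries thus came from assembled transcripts. Its log2 ratio of the library labelled shKSRP to mock was 0.44, and 0.23 with fragments counted over 1 gene length.

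Lamp2, the partner of Lamp1 in the membrane and in chaperone-mediated and other autophagy (chrX:35758241-35809632, minus strand), differed most among the abundant genes. It stood at 242 ± 2.9 FPKM in the library labelled shKSRP, 154 ± 2.2 in the BMP2 library and 66.9 ± 1.6 in mock, with log2 ratios to mock of 1.84 and 1.19. That order held in the shorter of its RefSeq transcripts, while in the longer one the first 2 libraries were level. The transcript of 1768 nt, which ends in an exon of 508 nt (chrX:35758241-35758748), had 95.6 ± 2.1 FPKM in the library labelled shKSRP, 65.4 ± 1.8 in the BMP2 library and 47.9 ± 1.4 in mock. The transcript of 3603 nt, which shares 8 exons with it and ends in an exon of 2343 nt (chrX:35772686-35775028), had 87.8 ± 1.4, 88.2 ± 1.3 and 18.9 ± 0.73 FPKM in the same libraries. In mock alone, a transcript of 2520 nt on the opposite strand covered Lamp2, with 37.9 ± 1.1 FPKM that are not counted in it. With that transcript counted and fragments set to 1 gene length, Lamp2 stood at 186 FPKM in the library labelled shKSRP, 120 in the BMP2 library and 68.9 in mock, the log2 ratios to mock were 1.42 and 0.79, and the second was no longer past 2-fold.

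Mcoln1, a calcium channel of the lysosomal membrane (chr8:3500519-3515231, plus strand), was at 40.1 ± 1.1 FPKM in the library labelled shKSRP, 30.3 ± 1.0 in the BMP2 library and 19.3 ± 0.81 in mock. Its log2 ratio of the library labelled shKSRP to mock was 1.02, just past the threshold, and its locus is shared with Pnpla6 and Zfp358.

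Counting fragments that fell on overlapping transcripts of the other strand or of no strand is a choice that touched many of these genes. Such transcripts lay over 4 lysosomal genes in the library labelled shKSRP, 3 in the BMP2 library and 8 in mock, so that they were most frequent in mock. The sources used here do not say whether the reads carry strand, and without it such fragments cannot be told from those of the gene. With every such transcript counted that lies to at least 50% of its length in the exons of the gene, and fragments set to 1 gene length, 8 of 31 genes were higher and 1 lower in the library labelled shKSRP than in mock, with a median log2 ratio of 0.53, where 9.73% of all compared genes were higher and 10.9% lower. In the BMP2 library 2 were higher, Ctsf and Ids, and 0 lower, with a median of 0.23, where 7.62% of all compared genes were higher. Gaa, Gla, Naglu, Neu1, Ids and Lamp2 stayed past 2-fold in the library labelled shKSRP, Tpp1 was added at 1.02, and Idua and Sgsh were lost. Mcoln1 kept its 1.02 because the overlapping transcript in mock, with 3.82 ± 0.32 FPKM, lies in its exons for 565 of 2588 nt and was not added.

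**Figure D3:**
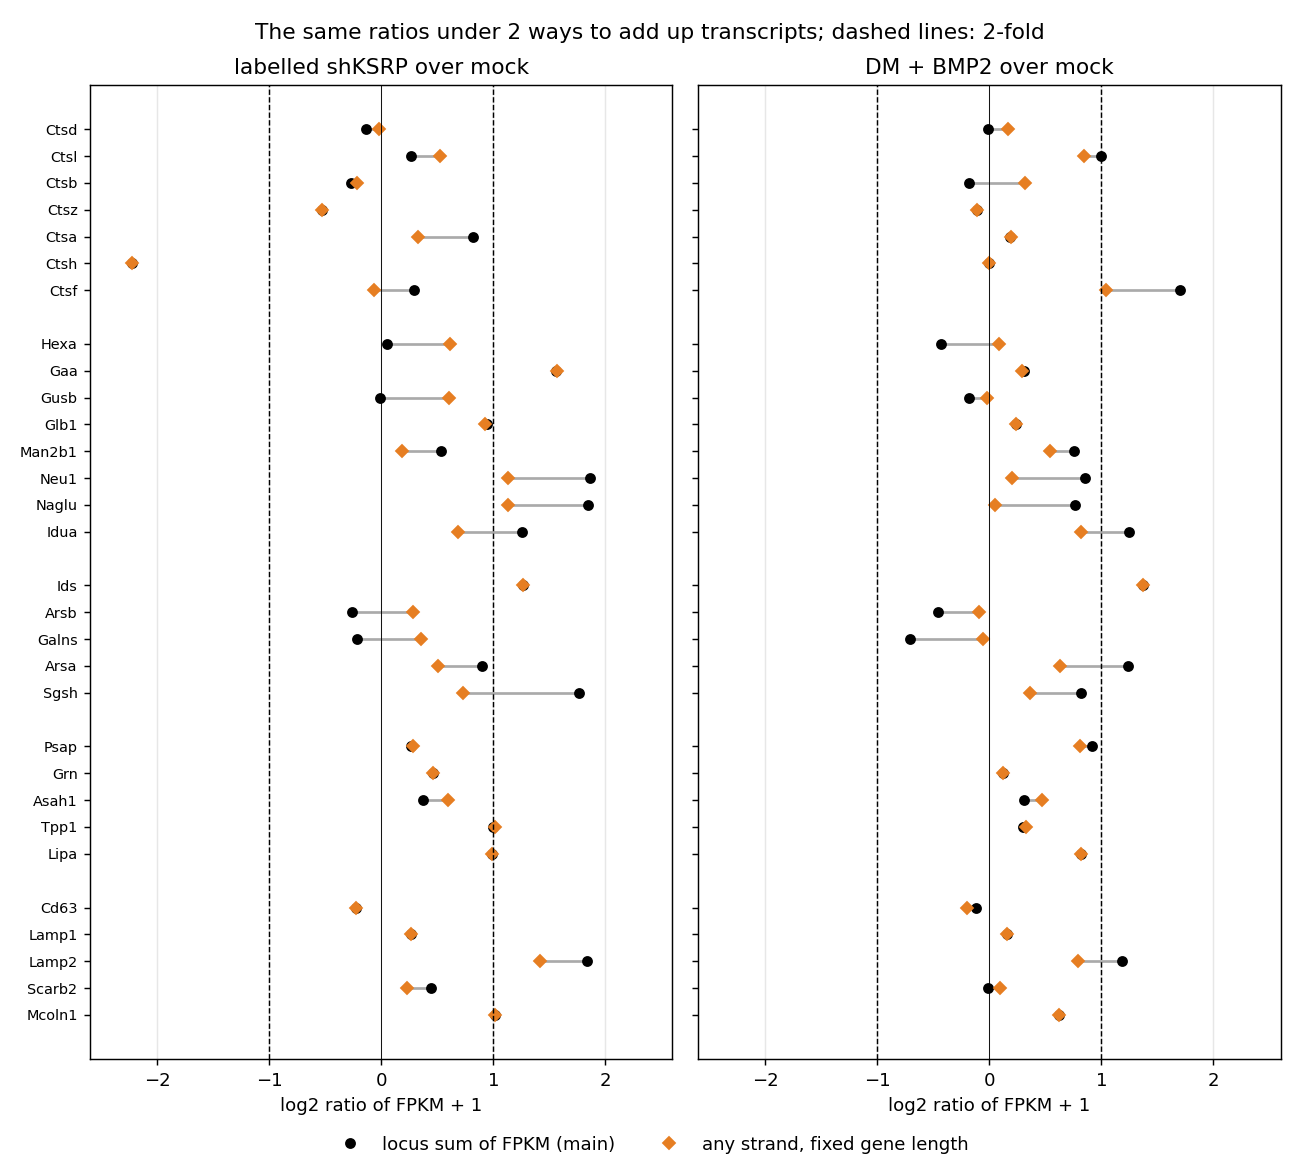
Log2 ratio of FPKM + 1 to mock for each compared lysosomal gene by the locus sum (black circles) and with overlapping transcripts of any strand counted over 1 gene length (orange diamonds), for the library labelled shKSRP (left) and the BMP2 library (right), with dashed lines at 2-fold. Gaa, Ids and Ctsh hardly move, while Sgsh goes to 0.73 and Naglu to 1.13 in the left panel; Gla is not drawn.

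Ratios also varied with transcript length over all genes. Against mock, the median log2 ratio of the library labelled shKSRP was -0.55 for the 907 compared genes under 1000 nt and 0.46 for the 1177 of 6000 nt or more. The lysosomal genes stood above that trend: the 9 with 3000 to 4000 nt had a median of 1.25, where the 1993 genes of that length had 0.12. These 9 include Gla, which was listed at 0 in mock and compared only through the library labelled shKSRP. The 11 with 2000 to 3000 nt had 0.44, where the 2683 genes of that length had -0.07. For the BMP2 library the same bins had lysosomal medians of 0.31 and 0.23, where genes of those lengths had 0.12 and 0.03.

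Other genes of the lysosome outside the 34 were described by the same rule. Their lists were chosen with earlier results of these data known, so they are no independent check of the pattern. Of 22 other lysosomal hydrolases, 3 were higher in the library labelled shKSRP than in mock and 0 lower, with a median log2 ratio of 0.22, and 2 were higher in the BMP2 library. Ctso, a further cysteine protease, was at 7.97 ± 0.37 FPKM in the library labelled shKSRP, 5.83 ± 0.37 in the BMP2 library and 2.76 ± 0.25 in mock. Acp2, an acid phosphatase, was at 18.9 ± 0.58, 19.8 ± 0.53 and 8.04 ± 0.38 FPKM, higher than mock in both libraries. Scpep1, a serine carboxypeptidase, was at 146 ± 2.1, 86.3 ± 1.7 and 70.2 ± 1.5 FPKM, past 2-fold in the library labelled shKSRP alone. Ppt1, a palmitoyl thioesterase, was past 2-fold in the BMP2 library alone, with 53.9 ± 1.1 FPKM there and 24.5 ± 0.73 in mock. This list was thus close to the share of all genes, 11.0%, that were higher. For the BMP2 library that share was 9.21%.

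Of 22 other lysosomal membrane proteins, 5 were higher in the library labelled shKSRP than in mock, and the 1 lower, Cln3, rests on a listed 0. The median log2 ratio was 0.38, and 11.0% of all compared genes were higher. Npc1, the cholesterol exporter, was at 16.1 ± 0.50 FPKM in the library labelled shKSRP, 8.04 ± 0.34 in the BMP2 library and 4.44 ± 0.26 in mock. Ctns, the cystine exporter, was at 20.9 ± 0.72, 10.1 ± 0.57 and 7.04 ± 0.48 FPKM. Both had the order of Naglu and Neu1, with the library labelled shKSRP highest and mock lowest. The other higher ones were Abca2, Cln6 and Slc36a1, with log2 ratios of 1.25, 1.21 and 1.19. In the BMP2 library 1 was higher, the amino acid transporter Slc36a1 with 1.28, and 1 was lower, the cation channel Tpcn1 with -1.36. There 9.21% of all compared genes were higher and 8.95% lower.

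The vacuolar ATPase pumps protons into the lysosome, and 3 of its 20 compared subunits were higher in the library labelled shKSRP than in mock and 1 in the BMP2 library, with medians of 0.12 and 0.11, where 11.0% and 9.21% of all compared genes were higher. Atp6v0a1 was at 24.3 ± 0.72 FPKM in the library labelled shKSRP, 24.6 ± 0.80 in the BMP2 library and 7.68 ± 0.44 in mock, a log2 ratio of 1.54 and 1.56. Atp6v0d2 was low, with 2.39 ± 0.24 FPKM in the library labelled shKSRP, 0.703 ± 0.14 in the BMP2 library and 0.306 ± 0.089 in mock, so that it was compared only through its level in the library labelled shKSRP. Atp6v0d1, at a shared locus, was at 154 ± 2.4, 106 ± 2.6 and 69.7 ± 1.7 FPKM.

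Of 21 genes of mannose 6-phosphate tagging and sorting, 3 were higher in the library labelled shKSRP than in mock and 0 lower, with a median of 0.42, and 1 was higher in the BMP2 library, where 11.0% and 9.21% of all compared genes were higher. Igf2r, the large mannose 6-phosphate receptor, was at 18.4 ± 0.54 FPKM in the library labelled shKSRP, 7.73 ± 0.24 in the BMP2 library and 6.71 ± 0.22 in mock, while M6pr, the small receptor, was at 72.9 ± 1.7, 69.2 ± 1.5 and 72.8 ± 1.5. The receptors thus differed in their ratios, 1.33 and 0.00 to mock on the log2 scale. The other higher genes were Ap1g1 and Ap3b1, subunits of adaptor complexes, with 1.61 and 1.15, and the one of the BMP2 library was Vps11 with 1.17.

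The MiT/TFE factors that bind the CLEAR element were at modest levels. Tfeb was at 4.55 ± 0.34 FPKM in the library labelled shKSRP, 6.43 ± 0.56 in the BMP2 library and 6.11 ± 0.49 in mock, and Mitf at 1.86 ± 0.18, 1.55 ± 0.19 and 1.36 ± 0.16. Tfe3 was the most abundant, with 26.4 ± 0.84 FPKM in the library labelled shKSRP, 10.2 ± 0.59 in the BMP2 library and 18.7 ± 0.82 in mock, and Tfec was listed at 0 in all 3. No factor was past 2-fold against mock, and Tfe3 was past it between the library labelled shKSRP and the BMP2 library, at 1.29. In their list with the mTORC1 pathway, 2 of 20 were higher and 1 lower in the library labelled shKSRP than in mock. Of all compared genes 11.0% were higher and 12.9% lower. Mtor, the kinase, was at 13.0 ± 0.52 FPKM in the library labelled shKSRP, 7.21 ± 0.51 in the BMP2 library and 3.59 ± 0.16 in mock. Flcn, a regulator of the Rag GTPases, was at 29.7 ± 0.78, 19.1 ± 0.67 and 13.4 ± 0.55 FPKM. Lamtor4, a subunit of the Ragulator anchor, was lower, with 19.9 ± 1.3 FPKM in the library labelled shKSRP, 71.0 ± 4.1 in the BMP2 library and 72.1 ± 3.1 in mock. The 1 gene of this list that was lower in the BMP2 library was Fnip1, at -1.21, where 8.95% of all compared genes were lower.

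Cystatins and related proteins inhibit cathepsins. Of 5 compared, 0 were higher and 1 was lower than mock in each of the other libraries. Of all compared genes, 11.0% were higher and 12.9% lower in the library labelled shKSRP, and 9.21% and 8.95% in the BMP2 library. Cst6, a cystatin, was at 0.763 ± 0.11 FPKM in the library labelled shKSRP, 3.75 ± 0.25 in the BMP2 library and 44.6 ± 2.5 in mock, log2 ratios of -4.69 and -3.26. Cst3, the most abundant cystatin, was at 469 ± 6.7, 653 ± 8.4 and 609 ± 8.0 FPKM, at a shared locus. Of 24 autophagy genes, 1 was higher in the library labelled shKSRP than in mock, Atg9a at a shared locus with 1.31, and 2 in the BMP2 library, Optn with 1.25 and Ulk2 with 1.08. Among all compared genes 11.0% and 9.21% were higher in these libraries. Sqstm1, the cargo receptor, fell just short in the library labelled shKSRP, at 0.98, with 631 ± 4.4 FPKM there, 306 ± 3.2 in the BMP2 library and 320 ± 3.3 in mock.

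**Figure D4:**
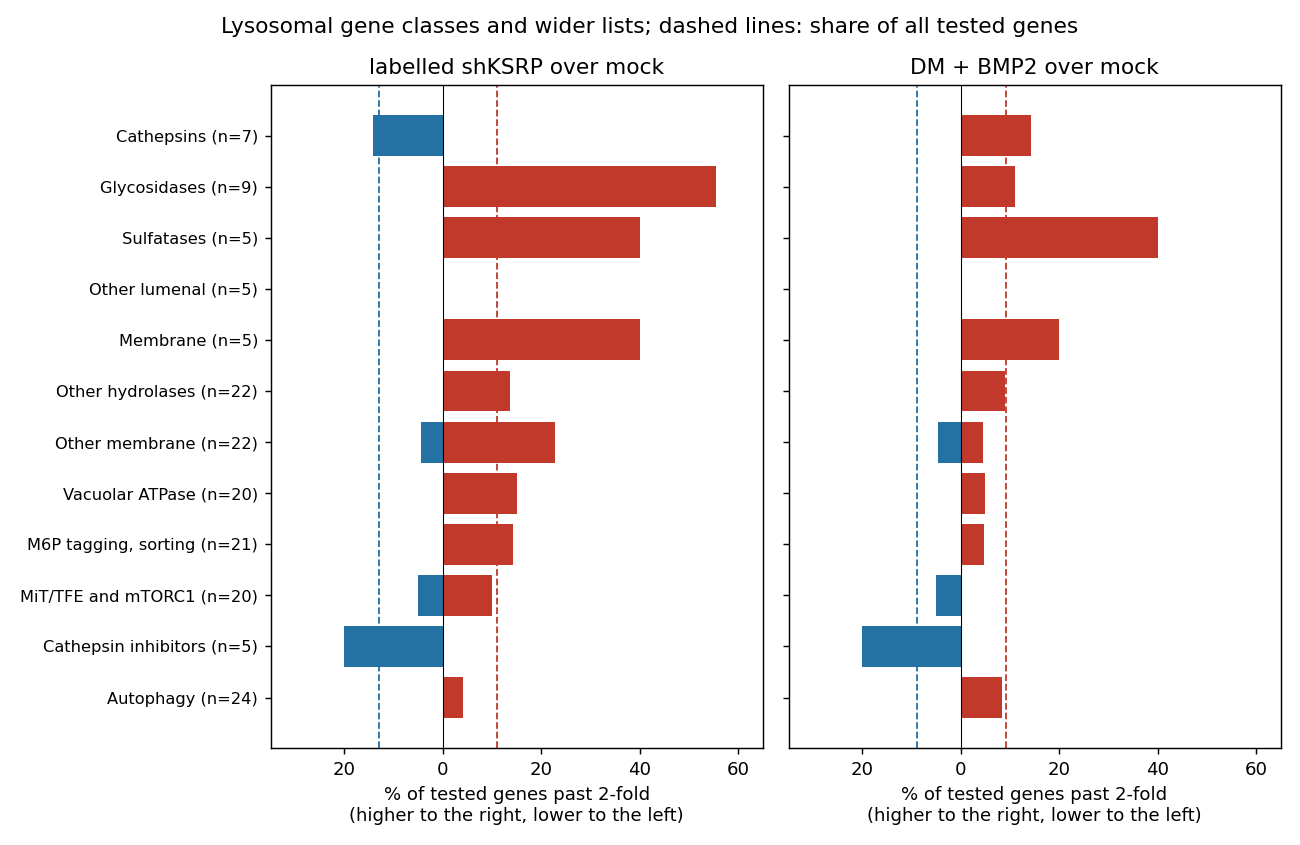
Percent of compared genes past 2-fold higher (red, to the right) or lower (blue, to the left) than mock in each of the 5 lysosomal classes and 7 wider lists, for the library labelled shKSRP (left) and the BMP2 library (right); dashed lines give the share of all compared genes. The glycosidases, with 5 of 9 including Gla, have the longest bar on the left, and the cathepsins have no red bar there.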

How the data were processed

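Polyadenylated RNA of 3 C2C12 libraries, 1 per group, was measured by RNA-seq. The authors' deposited files list transcripts by Cufflinks, 1 file a library, with FPKM and its 95% interval among the attributes. A score column in the deposited files was left unused. Cufflinks 1.3.0, TopHat 1.4.1, Bowtie 0.12.7, CASAVA 1.8 and the build mm9 are named in the submitters' processing notes, without settings. Libraries were assembled one by one, so the assembled transcripts differ between them (14761 in the library labelled shKSRP, 17278 in the BMP2 library, 17240 in mock, beside 28702 RefSeq transcripts in each).

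FPKM of a gene was the sum over its RefSeq transcripts and the assembled transcripts of the same Cufflinks locus, given at shared loci to the gene they overlap most. Half-widths of its transcripts were combined as the root of their summed squares, as if independent. Symbols came from RefSeq (27559 of 28222 accessions), GENCODE (170) or the files (216), and 277 accessions kept their own. Genes with 1 FPKM or more in at least 1 library and a RefSeq transcript of 300 nt or more were compared, which set aside 11244; 1709 compared genes share a locus and 762 are listed at 0 in a library. Ratios are log2 of FPKM + 1 without rescaling, called at 1 in size, which is no test. Depth was estimated from interval widths (transcripts of 2000 nt and 5 FPKM or more), and no molecular identifiers were used. Of the lists' symbols, Cd68 and Atp6v0a3 were not matched. All steps ran in Python 3.11.15 with pandas 2.3.3. Only the rule for higher and lower was tested on simulated gene levels, and the assignment of transcripts to genes was not. The members and lists were chosen with earlier results of these data known. Named in full are genes past 2-fold in a comparison and the 2 most abundant of each class, and of each wider list up to 5 genes past 2-fold and above 0 in all libraries, with the MiT/TFE factors; other genes named were chosen after their values were seen. In all, 13 planned and 3 added alternatives were run.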

Additional observations from a re-analysis of the deposited data

Results flagged for a closer look

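In the library labelled shKSRP, a transcript of the opposite strand over Arsb that is not counted in the gene stood at 3.95 ± 0.41 FPKM, and mock held none over Arsb. In the BMP2 library, a transcript of the opposite strand that overlaps Ctsb and was counted for its neighbour Fdft1 stood at 74.7 ± 1.0 FPKM, against 34.4 ± 0.65 in mock, and there was none in the library labelled shKSRP. Both are signals over a lysosomal gene outside its measured level that exceed mock. What they stem from was not tested.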

How the results depend on the processing

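No paired analysis was possible because each group holds 1 library and the labels give no replicate numbers; for the same reason no replicate could be left out. Over 16 alternatives, 82 of 96 recomputed counts of lysosomal genes past 2-fold stayed within 1.5 times the main count, and no called gene changed sign. Genes higher in the library labelled shKSRP than in mock (9) became 14 with each library scaled to the same total (TPM), where 19.1% of all compared genes were higher, and 14 at 1.5-fold (21.5%). The lower ones (1) became 2 with RefSeq transcripts alone or with the most abundant one (14.0% each), the addition being Man2b1. Genes higher in the BMP2 library than in mock (5) became 3 with a pseudocount of 5 (4.71%), 12 with TPM (14.8%), 13 at 1.5-fold (19.4%), and, in alternatives chosen after seeing the data, 1 with overlapping transcripts of any strand (8.4%) and 2 with these over 1 gene length (7.62%). The lower ones (0) became 1 at 1.5-fold (18.4%). Between the library labelled shKSRP and the BMP2 library, the higher ones (4) became 2 with a pseudocount of 5 (2.92%) and 9 at 1.5-fold (13.3%), and the lower ones (2) became 1 (4.48%) and 4 (17.6%). TPM moved the median log2 ratio to mock of all compared genes to 0.28 in both libraries, with 0.81 and 0.57 for the lysosomal genes, and the share of higher among all calls was then 67.9% for the library labelled shKSRP and 68.5% for the BMP2 library, in place of 46.0% and 50.7%. Of single calls against mock, Ctsh and Gaa in the library labelled shKSRP and Ids in the BMP2 library held in all 16. Idua and Sgsh were lost at a pseudocount of 5 and with overlapping transcripts of any strand, as was Arsa in the BMP2 library. Mcoln1 was lost at a pseudocount of 5, Naglu and, in the BMP2 library, Ctsf with overlapping transcripts of any strand. Neu1 was lost with RefSeq transcripts alone, and Lamp2 with its most abundant RefSeq transcript alone. Depth limits the genes near 1 FPKM, such as Idua in mock.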
